A study of Homo sapiens with 5 samples.

Results

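The muscle nicotinic acetylcholine receptor and the agrin-MuSK pathway were described through 10 genes in Rh41 cells, an established cell line from an alveolar rhabdomyosarcoma, a sarcoma whose cells express much of the programme of early skeletal muscle. The members were the rows named exactly CHRNA1, CHRNB1, CHRND, CHRNG, CHRNE, MUSK, RAPSN, DOK7, LRP4 and AGRN. All 10 were present among 43714 gene rows, and 9 were abundant enough to be tested. Per the labels, the line is fusion-positive. It was transfected with Lipofectamine RNAiMAX and either a scrambled siRNA (2 libraries, replicates 1 and 3) or an siRNA specific for H3F3A (3 libraries, replicates 1, 2 and 3), and RNA was collected after 48 hours. H3F3A is a gene for the histone variant H3.3, and the single comparison asks how lowering it changes transcript levels. A single line was used, and the labels do not say whether replicates were separate cultures, so the spread behind each p-value is that of these libraries and can be technical.

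The muscle receptor is a pentamer of 2 alpha subunits with a beta, a delta and either a gamma or an epsilon subunit. The gamma subunit belongs to the fetal receptor of immature and denervated muscle, and the epsilon subunit replaces it in the adult receptor of the innervated endplate. Receptors are gathered under the nerve by a signalling chain in which agrin binds LRP4, LRP4 activates the receptor kinase MuSK, the adaptor Dok-7 binds and activates MuSK from inside the cell, and rapsyn anchors the receptors. In developing myotubes the subunit genes are switched on by myogenic factors through E-boxes (CANNTG), and N-boxes (CCGGAA) serve their transcription under the synapse.

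The stretches before the starts of 4 members are shown because CHRNA1 and DOK7 differ in level from CHRNE by a wide margin, and because CHRND and CHRNE carry the N-box letters. They are the 250 bases before the RefSeq start (GRCh38.p14), 5′ to 3′ on the gene's strand, with every E-box and N-box in capitals; none of these overlap.
CHRNA1, chr2:174764473-174764722, minus strand: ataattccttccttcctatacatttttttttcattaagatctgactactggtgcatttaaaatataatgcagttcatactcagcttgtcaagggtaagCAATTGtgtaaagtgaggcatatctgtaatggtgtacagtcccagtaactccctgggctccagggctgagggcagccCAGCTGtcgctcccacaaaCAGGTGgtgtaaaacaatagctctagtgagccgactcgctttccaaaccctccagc
CHRND, chr2:232525910-232526159, plus strand: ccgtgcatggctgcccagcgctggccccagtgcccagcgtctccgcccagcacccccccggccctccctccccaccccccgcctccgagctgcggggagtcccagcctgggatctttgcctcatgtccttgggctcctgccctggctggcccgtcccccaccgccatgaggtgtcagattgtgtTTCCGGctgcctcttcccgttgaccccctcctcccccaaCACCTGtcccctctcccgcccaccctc
CHRNE, chr17:4903099-4903348, minus strand: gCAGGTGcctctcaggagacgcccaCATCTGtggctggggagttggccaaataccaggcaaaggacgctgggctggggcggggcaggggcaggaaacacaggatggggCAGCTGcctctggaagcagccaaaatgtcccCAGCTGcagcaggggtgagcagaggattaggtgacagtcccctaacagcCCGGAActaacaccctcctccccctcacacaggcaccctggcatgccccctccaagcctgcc
DOK7, chr4:3463056-3463305, plus strand: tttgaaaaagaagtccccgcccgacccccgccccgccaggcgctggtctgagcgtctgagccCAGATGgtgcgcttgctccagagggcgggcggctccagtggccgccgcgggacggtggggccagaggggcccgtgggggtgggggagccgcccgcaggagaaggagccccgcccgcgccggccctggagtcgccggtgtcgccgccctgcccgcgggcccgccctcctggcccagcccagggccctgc
The table held windows for 6 of the 10 members, with 2 starts for DOK7, and none for CHRNG, RAPSN, LRP4 or AGRN. E-boxes, whose letters read CANNTG on both strands, numbered 3 in CHRNA1, 1 in CHRND, 4 in CHRNE, 4 in CHRNB1, 3 in MUSK, and 1 and 0 in the windows of DOK7. The N-box, searched as CCGGAA on both strands, stood once in CHRND (first base at -66 from the start) and once in CHRNE (-62). Of 35116 RefSeq windows of this length, 61.8% held at least 1 E-box, 10.4% at least 3, and 14.5% an N-box. A single E-box is thus common, whereas at least 3, as in CHRNA1, CHRNE, CHRNB1 and MUSK, are less so. The matches are a description of letters only and were not tested.

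Assigned counts ran from 28493573 to 30705963 per library. H3F3A, named H3-3A in the files, had 8571 and 7983 counts in scrambled libraries and 280, 304 and 264 under H3F3A siRNA (log2 fold change -4.89, SE 0.0923, edgeR adjusted p = 9.04e-21). Scrambled replicate 1 stood apart in how its CPM (counts scaled to library size with TMM factors) depended on GC content. Across 12466 genes its log2 CPM, centred on the 5-library mean, had a slope of 0.158 per 10 percentage points of GC, against -0.0069 in scrambled replicate 3 and -0.0646 to -0.0427 in the H3F3A siRNA libraries. The summed CPM of 12 muscle and rhabdomyosarcoma markers was 5864 to 7119 in scrambled and 5306 to 5413 in H3F3A siRNA libraries, with 2 called lower and 2 higher, or 2 lower and 1 higher with the GC trend of each library removed; of all 15859 genes tested, 3.2% were called in either direction. The called markers were FGFR4 (log2 fold change -0.50) and TNNT2 (-0.30), lower, and TTN (0.54) and TFAP2B (0.49), higher. TTN was not called with the GC trend removed. Among markers that were not called, MYOD1 stood at 1340, MYOG at 240, DES at 835 and ACTC1 at 931 mean CPM in scrambled libraries. Markers of other cells were also summed: 7 for motor neurons (13 to 15.4 against 11.4 to 13.4 CPM, with CHAT at 0), 7 for Schwann cells (545 to 626 against 460 to 468, nearly all NGFR, with S100B at 0), 6 for fibroblasts (80.5 to 89.5 against 64.0 to 70.9, with THY1, DCN and LUM near 0) and 5 for immune cells (4.08 to 4.25 against 4.10 to 4.50). NGFR (log2 fold change -0.36), PDGFRB (-0.36) and COL1A1 (-0.36) fell under H3F3A siRNA. With the GC trend removed they stood at -0.12, -0.25 and -0.19 and were not called. The remaining tested fibroblast marker, FAP, had a log2 fold change of 0.86 that did not pass (12 and 16 against 23, 27 and 28 counts; adjusted p = 0.185). DCN was too low to be tested, with 3 and 7 against 13, 8 and 10 counts. The part of these markers in the results was not tested.

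The genes were expressed at very unequal levels, and CHRNA1, CHRND and CHRNG of the fetal receptor all had reads in every library. Per kilobase of the principal transcript in GENCODE release 29, CHRNA1 had the highest level in scrambled libraries, at 477 ± 17.3 CPM per kilobase (SD, n = 2). CHRND followed at 105 ± 10.0, RAPSN at 95 ± 15.5 and AGRN at 93 ± 16.1, and the ranges of these 3 overlapped. DOK7 stood at 45.4 ± 11.5, below all of them in each library. MUSK at 6.26 ± 0.62 and CHRNG at 5.42 ± 0.44 overlapped over the 5 libraries, LRP4 stood at 3.39 ± 0.10, and CHRNE was lowest at 0.152 ± 0.060. With the length of all annotated exons in place of the principal transcript, RAPSN passed CHRND and CHRNG passed MUSK, and no other place changed. These levels count only reads assigned without regard to strand, which for CHRNG and CHRNE are a lower limit. With reads shared with genes on the other strand added, CHRNG stood at 13.2 to 15.8 CPM per kilobase over the 5 libraries, above the unstranded level of MUSK in each, and CHRNE at 1.47 to 1.95, still below LRP4.

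**Figure D1:**
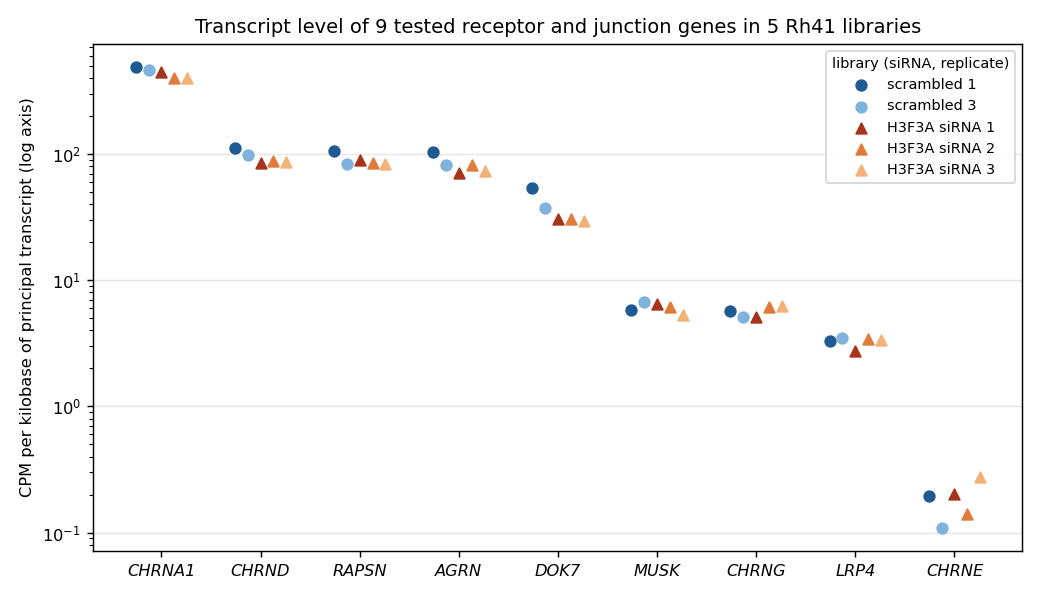
CPM per kilobase of principal transcript (log axis) for 9 genes, with 1 point for each library (circles, scrambled siRNA; triangles, H3F3A siRNA). CHRNA1 lies at 402 to 490 and CHRNE at 0.109 to 0.275, and for DOK7 both circles lie above all 3 triangles.

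CHRNB1, the beta subunit, could not be measured. It had 1 and 1 counts in scrambled libraries and 2, 3 and 2 under H3F3A siRNA. The files also hold a row for a numbered copy of CHRNB1, with 0 counts in every library. The genes next to it in RefSeq, FGF11, TMEM102 and ZBTB4, have such copies too and had 0 to 5 counts in their own rows. POLR2A, which encodes the largest subunit of RNA polymerase II, also has a copy and had 585 to 696 counts. Counts of this kind leave out reads that map to more than 1 place. Whether this lowered the count of CHRNB1 was not tested. The count is therefore not read as an expression level, and CHRNB1 entered no test.

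DOK7 and CHRND, 2 of the 9 tested members, fell under H3F3A siRNA and none rose (edgeR quasi-likelihood test, adjusted p under 0.05). Over all genes tested, 3.2% were called, 2.69% lower and 0.504% higher, and the 9 were chosen with earlier results of these data known. Of the 9, 7 had a log2 fold change below 0 with a median of -0.14, beside 48.6% of all genes and a median of 0.01. The groups did not overlap in 4 members, DOK7, CHRND, CHRNA1 and AGRN, all lower under H3F3A siRNA. Of all genes, 33.1% had ranges that did not overlap, with 17.1% of all genes lower and 16% higher. With each library's GC trend removed, 1 of 9 members was called lower (DOK7) and 0 higher, and the median was -0.04. Of all genes 1.92% were then called, 1.32% lower and 0.599% higher. In bulk RNA, fewer cells with a transcript and less transcript per cell cannot be told apart.

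**Figure D2:**
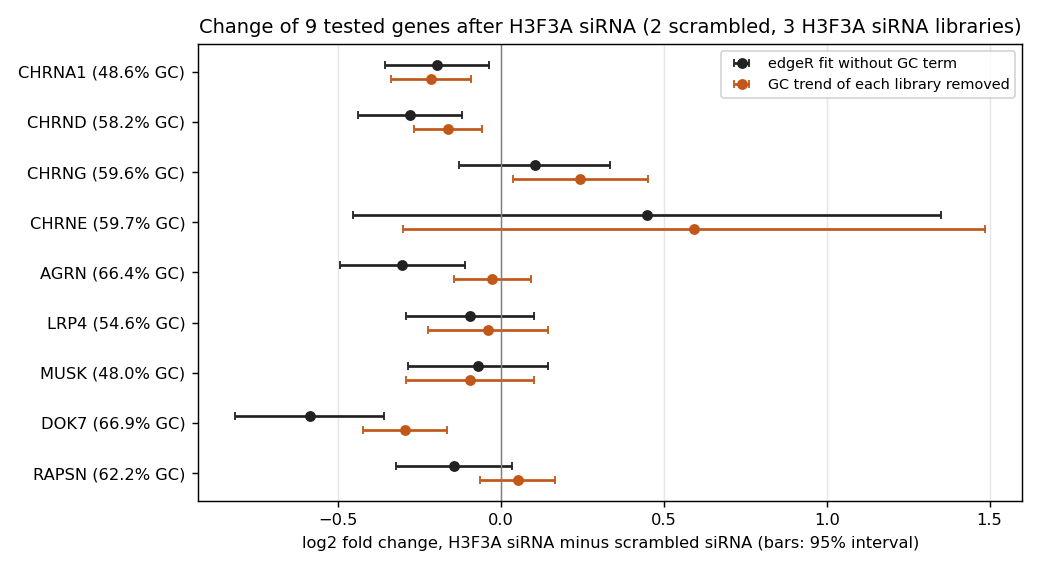
Log2 fold change of each tested member (H3F3A siRNA minus scrambled siRNA, 3 against 2 libraries) with its 95% interval, in the fit without a GC term (black) and with each library's GC trend removed (orange). DOK7 lies at -0.59 and -0.29, AGRN moves from -0.30 to -0.03, and CHRNE has the widest interval, -0.45 to 1.35.

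Among the receptor subunits, CHRNA1, which carries most of the acetylcholine binding site, had 971 and 923 CPM in scrambled libraries and 880, 801 and 798 CPM under H3F3A siRNA. All 3 H3F3A siRNA libraries lay below both scrambled ones, but the difference did not pass (log2 fold change -0.20, SE 0.0773, adjusted p = 0.181). Its value hardly depended on GC content, which is 48.6% in this gene (-0.22 with the trend removed, adjusted p = 0.0731). CHRND, the delta subunit, had 236 and 206 CPM in scrambled libraries and 178, 185 and 184 CPM under H3F3A siRNA, a 1.21-fold fall (log2 fold change -0.28, SE 0.0770, adjusted p = 0.0477). Scrambled replicate 1 was the highest, and the 3 H3F3A siRNA libraries lay close together. The call of CHRND held in 6 of 15 alternatives. Among other settings, it was lost when any 1 H3F3A siRNA library was left out, without scrambled replicate 1 (-0.18, adjusted p = 0.352) and with the GC trend removed (-0.16, adjusted p = 0.113).

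The fetal subunit CHRNG outnumbered the adult subunit CHRNE in every library, and neither passed the test. CHRNG had 378 and 343 counts in scrambled libraries and 342, 401 and 439 counts under H3F3A siRNA, or 13, 11.6, 11.5, 13.8 and 14.2 CPM. The groups overlapped, and the log2 fold change was 0.10 (95% interval -0.13 to 0.34, adjusted p = 0.694), or 0.24 with the GC trend removed (adjusted p = 0.285). CHRNE had 14 and 8 counts in scrambled libraries and 15, 10 and 21 under H3F3A siRNA. At such counts a change could not be resolved (log2 fold change 0.45, 95% interval -0.45 to 1.35, adjusted p = 0.65).

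These unstranded counts leave out reads that overlap another gene on the opposite strand, and both subunits lose many. Counting each strand separately and adding both settings brings those reads back, whichever gene they came from, and gave 973, 883, 971, 1040 and 1028 for CHRNG and 121, 108, 144, 123 and 143 for CHRNE in the same order of libraries. The unstranded count held 35.2% to 42.7% of that sum for CHRNG and 7.41% to 14.7% for CHRNE. The reads brought back for CHRNG, 540 to 639 per library, nearly equal the 541 to 643 brought back for TIGD1, a gene whose span overlaps that of CHRNG in RefSeq. In GENCODE release 29 no exon of another gene overlaps those of CHRNG. The pairing with TIGD1 thus rests on the RefSeq spans and the near-equal counts. For CHRNE, 40.9% of its exon bases in GENCODE release 29 lie under C17orf107 and 10.1% under MINK1, both on the other strand. These reads cannot be assigned to either gene, so each pair of values brackets the reads of the subunit as far as such overlaps go.

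Across the whole bracket CHRNG stayed above CHRNE. The lowest ratio that the counts of a library allow, unstranded CHRNG over summed CHRNE, was 2.38 to 3.26. The unstranded ratio was 27 and 42.9 in scrambled libraries and 22.8, 40.1 and 20.9 under H3F3A siRNA, and the ratio of the sums was 8.04 and 8.18 against 6.74, 8.46 and 7.19. The groups overlapped on both. On the log2 scale with a pseudocount of 0.5, the unstranded ratio was 5.02 ± 0.45 (SD, n = 2) against 4.69 ± 0.49 (SD, n = 3), a difference of -0.33 (exact two-sided permutation test, p = 0.4; 2 against 3 libraries cannot give less than 0.2).

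**Figure D3:**
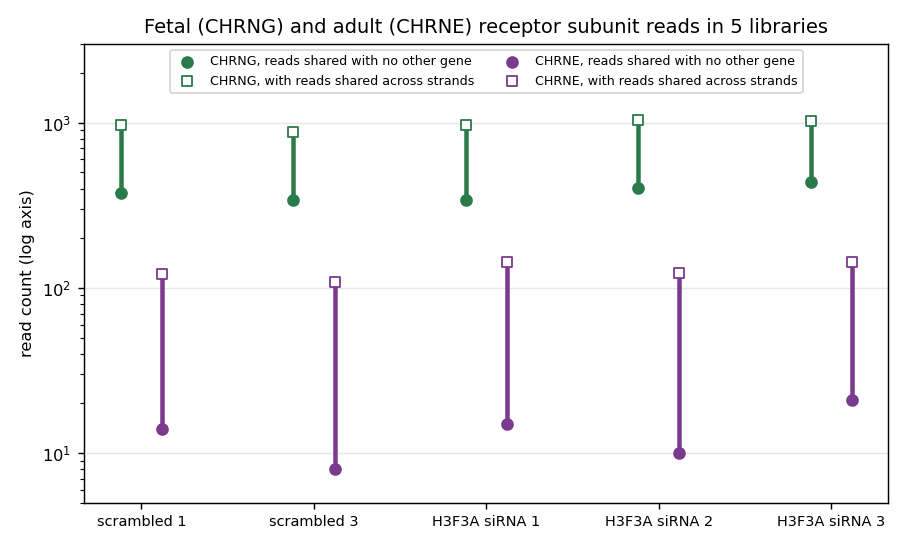
Read counts (log axis) of CHRNG (green) and CHRNE (purple) in each library, from the unstranded count (filled circle) to the sum of the stranded counts (open square). In every library the lowest CHRNG value, 342 to 439, lies above the highest CHRNE value, 108 to 144.

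Set against the delta subunit within a library, CHRNG was higher under H3F3A siRNA. It had 5.48 and 5.60 counts per 100 counts of CHRND in scrambled libraries and 6.43, 7.47 and 7.72 under H3F3A siRNA. The groups do not overlap, but 33.1% of all genes tested also had CPM ranges that did not overlap. No such share was taken for ratios. This ratio rises when CHRND falls as well as when CHRNG rises. CHRND was called lower (log2 fold change -0.28), whereas CHRNG was not called (0.10) and its groups overlapped. The unstranded CHRNG count used here held 35.2% to 42.7% of its summed stranded count. The GC contents of CHRNG and CHRND are 59.6% and 58.2%. The ratio was picked after the values were seen and was not tested. CHRND per 100 counts of CHRNA1 was 24.3 and 22.4 against 20.2, 23.1 and 23.1, and there the groups overlap.

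At the head of the MuSK pathway, AGRN, the secreted ligand agrin, had 764 and 598 CPM in scrambled libraries and 519, 597 and 540 CPM under H3F3A siRNA. The groups were separated only by a hair, and scrambled replicate 1 stood alone above the other 4 libraries. The difference did not pass (log2 fold change -0.30, SE 0.0925, adjusted p = 0.0773). With the GC trend removed the value was -0.03 (adjusted p = 0.904), and without scrambled replicate 1 it was -0.12 (adjusted p = 0.723). Without scrambled replicate 3 it was -0.47 (adjusted p = 0.000291). AGRN was called in 4 of 15 alternatives, among them DESeq2 (adjusted p = 0.049) and no low-count filter (adjusted p = 0.00834). AGRN has 66.4% GC. Gene counts do not separate the neuronal splice form of agrin, which drives clustering, from the form that muscle makes.

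Neither receptor of the ligand passed the test. LRP4, the coreceptor for agrin, had 26.8 and 27.9 CPM in scrambled libraries and 22.3, 27.4 and 27.1 CPM under H3F3A siRNA (log2 fold change -0.10, 95% interval -0.29 to 0.10, adjusted p = 0.661). MUSK, the kinase, had 16.0 and 18.5 CPM in scrambled libraries and 17.7, 17 and 14.6 CPM under H3F3A siRNA (log2 fold change -0.07, 95% interval -0.29 to 0.15, adjusted p = 0.788). In both genes the groups overlap and the intervals leave room for changes of about the size seen in CHRND. The unstranded count held 91.2% to 93.2% of the summed stranded count for LRP4, which shares exons with LRP4-AS1, and 83.7% to 89.6% for MUSK.

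DOK7, the adaptor of MuSK, had the largest fold change and the smallest p of the 9 tested members. It had 137 and 95.5 CPM in scrambled libraries and 78.1, 77.9 and 75.9 CPM under H3F3A siRNA, a 1.5-fold fall (log2 fold change -0.59, SE 0.108, adjusted p = 0.00739). The 3 H3F3A siRNA libraries lie close together, whereas the scrambled libraries lie far apart, with replicate 1 the higher. Without scrambled replicate 1 the log2 fold change was -0.31 (adjusted p = 0.0425), and without scrambled replicate 3 it was -0.83 (adjusted p = 7.9e-08). DOK7 has the highest GC content of the members, 66.9%, where the trend of scrambled replicate 1 stood 0.324 log2 above the mean of the libraries and those of H3F3A siRNA libraries 0.0751 to 0.141 below it. With the trend removed the value was -0.29 (adjusted p = 0.0205). DOK7 was called in 13 of 15 alternatives. It missed the threshold when H3F3A siRNA replicate 1 was left out (-0.59, adjusted p = 0.12) and with the trend removed and scrambled replicate 1 left out (-0.19, adjusted p = 0.404).

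RAPSN, the anchoring protein rapsyn, had 177 and 140 CPM in scrambled libraries and 149, 141 and 140 CPM under H3F3A siRNA. Scrambled replicate 1 alone was high, and replicate 3 lay among the H3F3A siRNA libraries. The log2 fold change was -0.14 (SE 0.0863, adjusted p = 0.42), and it was 0.05 with the GC trend removed and 0.03 without scrambled replicate 1. Within libraries, DOK7 had 77.4 and 68.0 counts per 100 of RAPSN in scrambled libraries and 52.3, 55.3 and 54.1 under H3F3A siRNA. Per 100 counts of AGRN, whose GC content is nearly that of DOK7, it had 17.9 and 16.0 against 15.1, 13.1 and 14.1. The groups do not overlap in either ratio. Of all genes tested, 33.1% had CPM ranges that did not overlap, and no such share was taken for ratios. Both ratios were picked after the values were seen and were not tested.

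**Figure D4:**
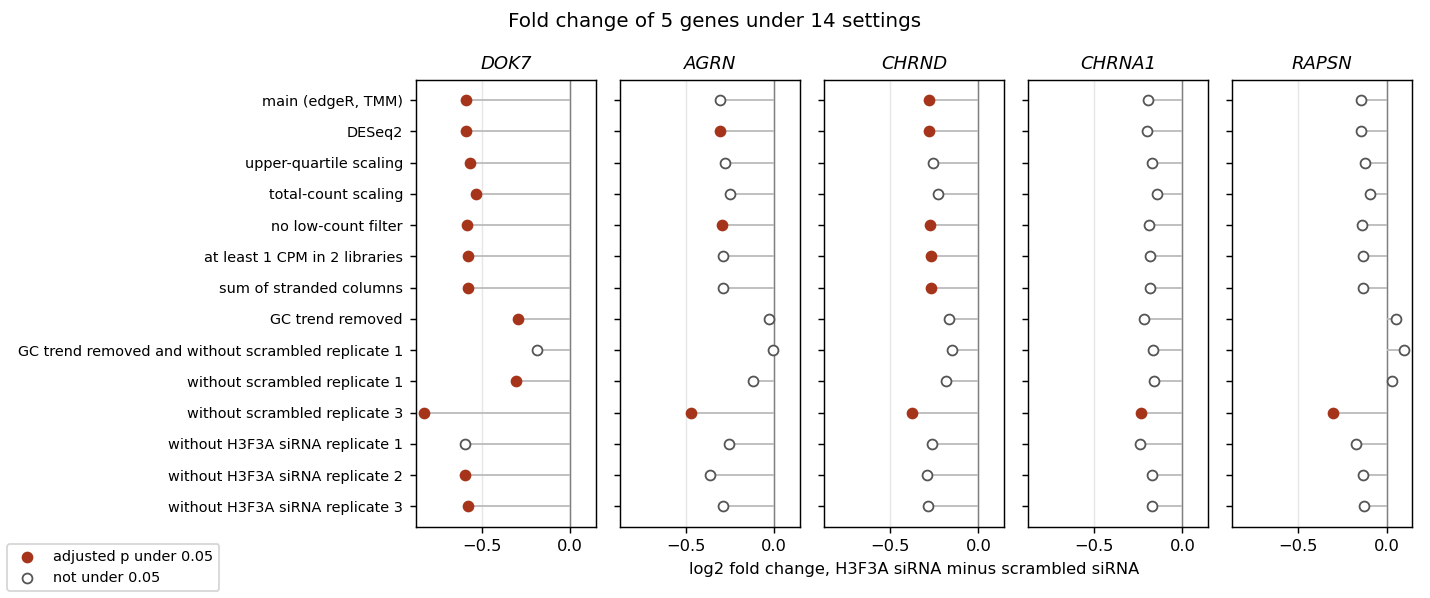
Log2 fold change (H3F3A siRNA minus scrambled siRNA) of 5 members under 14 settings, filled where the adjusted p is under 0.05. DOK7 is filled in all but 2 settings, AGRN lies at -0.03 and -0.0046 in the settings with the GC trend removed, and RAPSN turns above 0 there and without scrambled replicate 1.

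Over the 5 libraries, the genes whose centred log2 CPM was closest to that of DOK7, by Euclidean distance among 10500 other genes with at least 5 CPM, were ALDH16A1 (distance 0.0431), JSRP1 (0.083) and PCSK1N (0.0925). ALDH16A1, of the aldehyde dehydrogenase family, went from 85.2 and 58.2 CPM to 48.2, 47.2 and 47.8 CPM. JSRP1, which sits at the junctional sarcoplasmic reticulum, and PCSK1N, an inhibitor of a proprotein convertase, likewise had scrambled replicate 1 highest and the 3 H3F3A siRNA libraries lowest. The 3 genes were picked for likeness to DOK7 in these libraries, so the shared order follows from that choice. The GC contents of ALDH16A1, JSRP1 and PCSK1N are 65.7%, 64.2% and 69.3%, and the part of GC content was not tested.

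Around the members, 6 lists of other genes of the junction, with 26, 17, 13, 13, 5 and 16 tested genes, held 9 called genes, 8 lower and 1 higher. Over all genes tested, 2.69% were called lower and 0.504% higher. The scaffold of dystrophin, utrophin and the endplate sodium channel had 4 of 13 tested genes lower and 9 not called (median log2 fold change -0.06, beside 0.01 over all genes and 3.2% of all genes called in either direction). SCN4A, the sodium channel that carries the muscle action potential, had 183 and 159 CPM in scrambled libraries and 118, 127 and 127 CPM under H3F3A siRNA (log2 fold change -0.46, SE 0.0784, adjusted p = 0.00257), and it was called in 14 of 15 alternatives. DAG1, the dystroglycan that binds agrin and laminin, had 433 and 425 against 324, 343 and 344 CPM (log2 fold change -0.35, adjusted p = 0.0109). In both genes every H3F3A siRNA library lay well below both scrambled ones. The syntrophin SNTB1 (-0.36, adjusted p = 0.0413) and the linker protein PLEC (-0.32, adjusted p = 0.045) fell as well. With the GC trend removed SCN4A (-0.36), DAG1 (-0.27) and SNTB1 (-0.39) were called and PLEC was not (-0.05, adjusted p = 0.823). Without scrambled replicate 1 the log2 fold changes were -0.36 for SCN4A, -0.34 for DAG1, -0.49 for SNTB1 and -0.19 for PLEC. Without H3F3A siRNA replicate 1 none of the list was called. Of all 15656 genes tested in that setting, only 9 were called lower and 6 higher.

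Among 26 tested partners and downstream genes of MuSK, 2 were lower, 1 was higher and 23 were not called (median -0.01). Of all genes tested, 2.69% were called lower and 0.504% higher. CTTN, 1 of the 23, has a numbered copy in the files and only 10 to 13 counts; without it 22 of 25 were not called and the median was -0.01. PDZRN3, a ubiquitin ligase that binds MuSK and lowers its surface level, had 74.9 and 70.1 CPM in scrambled libraries and 84.6, 95.4 and 92.3 CPM under H3F3A siRNA, a 1.25-fold rise (adjusted p = 0.0259). It also rose with the GC trend removed (log2 fold change 0.38, adjusted p = 0.00264) and without scrambled replicate 1 (0.37, adjusted p = 0.0276). LIMK1, the kinase of cofilin, and DVL1, a Dishevelled protein that binds MuSK, fell 1.24-fold and 1.26-fold. Neither was called with the GC trend removed (log2 fold change -0.17 and -0.06) or without scrambled replicate 1. Without H3F3A siRNA replicate 1 or replicate 2, none of the list was called. Of all genes tested, 9 of 15656 were called lower and 6 higher without replicate 1. Without replicate 2, 153 of 15665 were called lower and 24 higher.

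Of 13 tested genes of the synaptic matrix and of acetylcholine handling, 2 were lower and 11 not called (median -0.18, or -0.09 with the GC trend removed). Of all genes tested, 2.69% were called lower and 0.504% higher. HSPG2, the proteoglycan perlecan, which holds acetylcholinesterase in the synaptic cleft, had 2241 and 1902 CPM in scrambled libraries and 1332, 1735 and 1564 CPM under H3F3A siRNA (log2 fold change -0.42, adjusted p = 0.0201). The laminin chain LAMA5 fell by 0.45 on the log2 scale (adjusted p = 0.0152). With the GC trend removed neither was called (-0.21 and -0.20), nor were they without scrambled replicate 1 (-0.30 and -0.32).

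The other 3 lists had no called gene by edgeR. Of 17 tested genes of synapse-specific transcription, 7 had an unadjusted p under 0.05 (16.8% of all genes had one), led by the myogenic factor MYOD1 (log2 fold change -0.29, adjusted p = 0.0654) and the neuregulin NRG1 (0.32, adjusted p = 0.0668); MYOD1 was at -0.03 with the GC trend removed. Of 5 tested neuronal nicotinic subunits, 0 had an unadjusted p under 0.05, and CHRNB2 (-0.84, adjusted p = 0.417) and CHRNA10 (-0.25, adjusted p = 0.611) had the smallest p, both below 3 CPM. CHRNA5, named after its value was seen, was the most abundant of them, at 20.8 ± 0.50 CPM (SD, n = 2) and 21.8 ± 1.30 CPM (SD, n = 3). Of 16 tested genes of receptor assembly and of the glycosylation defects behind congenital myasthenia, 2 had an unadjusted p under 0.05: GMPPB (-0.27, adjusted p = 0.092) and the chaperone HSPA5 (-0.19, adjusted p = 0.19). With the GC trend removed HSPA5 (-0.23, adjusted p = 0.0318) and GFPT1 (-0.24, adjusted p = 0.0201), an enzyme of amino sugar synthesis, were called in this list. In that setting 1.32% of all genes were called lower.

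**Figure D5:**
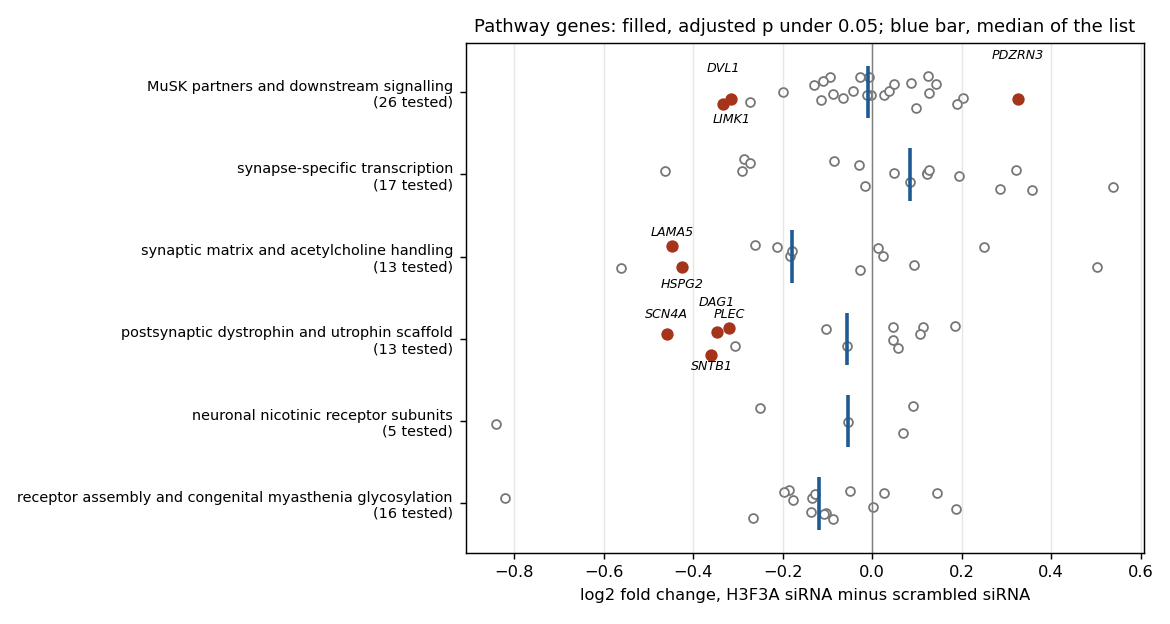
Log2 fold change (H3F3A siRNA minus scrambled siRNA) of the tested genes of 6 lists, 1 point a gene, filled and named where the adjusted p is under 0.05, with the median of each list as a bar. PDZRN3 at 0.32 is the only filled point above 0, and the list medians run from -0.18 to 0.08.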

How the data were processed

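Per the labels' protocols, poly-A RNA was captured on poly-T beads and went into NEBNext Ultra libraries. STAR 2.5, HTSeq 0.6.1, DESeq2 and hg19 are named, without roles, in the submitters' processing notes. The authors deposited raw read counts per gene in STAR's layout, with 1 unstranded and 2 stranded columns; the stranded columns split reads evenly (49.9% to 50.1%), so strand carries no information. The 4 summary lines were left out; 4.45% to 4.56% of reads were ambiguous and 6.28% to 6.42% multimapping. Among the gene rows, 4791 are numbered copies, so the reference is uncertain and only RefSeq coordinates are printed.

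Unstranded counts were tested with edgeR 4.0.16 (R 4.3.3): filterByExpr (minimum count 10, minimum total 15), TMM, robust quasi-likelihood fit, Benjamini-Hochberg over 15859 genes, threshold 0.05. Standard errors came from the fold change and F. For the GC alternative, a lowess trend (span 0.3) of log2 CPM over transcript GC content in GENCODE release 29 entered as an offset; 90.7% of tested genes had a value. Other alternatives were DESeq2 1.42.0, scaling, filters, summed strands, a replicate block and leaving out each library. On simulated data for this comparison (15623 genes), the test recovered 47% of changes of 0.4 log2 and 87% of changes of 1 log2. The simulation gave all genes the same dispersion (coefficient of variation 6.53%) and no GC trend. The real libraries had such a trend, so these shares may not hold for them. Intervals cover library spread as modelled.

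The members and lists were chosen with earlier results of these data known. Named genes were the members, H3F3A, called genes of the 6 lists, the 2 smallest p of a list without calls, and the 3 genes most like the member with the smallest p.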

Additional observations from a re-analysis of the deposited data

How the results depend on the processing

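Of 15859 genes tested 507 were called, and 2 members. The count of all genes was 574 with a replicate block, 792 with no low-count filter, 305 with the GC trend removed, 74 with that and scrambled replicate 1 left out, and 1260 with the GC trend removed and the replicate block; leaving out 1 library gave 15 to 2481. It was lowest without H3F3A siRNA replicate 1, 102 without scrambled replicate 1, and highest without scrambled replicate 3. The count of called members, all lower, was 3 with DESeq2, 3 with no low-count filter, 1 with upper-quartile scaling, 1 with total-count scaling, 1 with the GC trend removed, 0 with that and scrambled replicate 1 left out, 3 with the GC trend removed and the replicate block, and 0 to 5 over leaving out 1 library (0 without H3F3A siRNA replicate 1, 5 without scrambled replicate 3). No alternative called a member higher. The labels do not say whether same-numbered libraries were paired. The correlation of their deviations was 0.112 for replicate 1 and 0.0487 for replicate 3. With 2 scrambled libraries the deviations mirror each other, so these values cannot decide on pairing. With the block 2 members were called: DOK7 stayed, AGRN was gained (adjusted p = 0.013) and CHRND was at 0.0877.

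RAPSN turned above 0 with the GC trend removed (0.051), with that and scrambled replicate 1 left out (0.10), with the GC trend removed and the replicate block (0.068) and without scrambled replicate 1 (0.029; -0.30 to 0.029 over leaving out 1 library). MUSK turned above 0 without scrambled replicate 3 (0.033) and without H3F3A siRNA replicate 3 (0.0089; -0.17 to 0.033), CHRNB2 with summed strands (0.10), CHRNA10 with the GC trend removed and scrambled replicate 1 left out (0.031), and MYOD1 with the GC trend removed and the replicate block (0.0036). The cause of these turns was not tested. DOK7, CHRND, CHRNA1, LRP4 and AGRN stayed below 0 in all 15 alternatives, and CHRNG stayed above 0. The log2 ratio of CHRNG to CHRNE differed by -0.64 to -0.01 when 1 library was left out, -0.13 with summed strands and -0.21 with a pseudocount of 5. Total-count scaling moved the median of all genes from 0.01 to 0.06. Low counts limit CHRNE, at 8 to 21 unstranded counts, against 108 to 144 with summed strands, which include reads of overlapping genes. With summed strands its log2 fold change was 0.24 (SE 0.156, edgeR adjusted p = 0.457).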

Other observations

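Besides CHRNB1, several list genes with numbered copies in the files had few or no counts. CTTN, an actin-binding protein downstream of MuSK, had at most 13 counts in any library, DNAJA3, a MuSK-binding chaperone, at most 1, PRIMA1, the membrane anchor of acetylcholinesterase, at most 1 and CHRNA7 at most 2. CSNK2B, a subunit of casein kinase 2, has 6 numbered copies and 0 counts in all 5 libraries. These counts are not read as expression levels here; of these genes only CTTN passed the low-count filter and entered its list's count. Other genes with a copy had many counts, such as CANX with up to 3317 and SNTB2 with up to 1015.

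Acetylcholinesterase and its anchor were weakly expressed, and neither passed the test. ACHE had 8.02 and 6.84 CPM in scrambled libraries and 8.24, 8.24 and 7.31 CPM under H3F3A siRNA (edgeR adjusted p = 0.757), and COLQ, the collagen tail that anchors the enzyme in the synapse, had 2.74 and 2.42 against 2.24, 2.31 and 1.91 CPM (adjusted p = 0.518). BCHE, the related butyrylcholinesterase, had a mean of 194 CPM with scrambled siRNA and 198 CPM with H3F3A siRNA (adjusted p = 0.911). These genes were named after their values were seen.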
